A study of Mus musculus with 12 samples.

Results

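Embryonic ventricles that carried a stop allele of Mib1 were compared with ventricles that did not. The comparison took in all 12 libraries of the series, 6 from carriers and 6 from non-carriers, chosen by genotype and by no measured value. It covers 2 mouse lines, each with 3 carrier pools and 3 non-carrier pools, and carriers were set only beside non-carriers of their own line. In the Cre line, the carrier (called the Mib1 mutant) had the stop allele Mib1R530X over a loxP-flanked (flox) Mib1 allele and 1 copy of Tnnt2-Cre. Its non-carrier, the Cre control, had 1 flox and 1 normal Mib1 allele with the same Tnnt2-Cre copy. In the other line, called the non-Cre line, the carrier was a triple heterozygote with 1 copy each of Mib1R530X, an Asxl3 missense allele and the Apcdd1 V150I allele, and the non-carrier was wild type (WT). The Asxl3 allele is given as M1415V in the genotype labels and as M1361V in the protocol text. All embryos were at E15.5, and each library came from a pool of 4 pairs of ventricles. In the count table the triple heterozygote columns are named only as mutant, and they were assigned because those names hold neither flox nor Cre.

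The stop allele is the element that the carrier groups have in common. In the Cre line it is the only difference between the genotypes given, and in the non-Cre line it is not. Tnnt2-Cre recombines loxP sites in cardiomyocytes and is present on both sides of the Cre line comparison. There the carrier has, in cardiomyocytes, a stop allele beside a recombined allele, while its other cells have a stop allele beside an intact one. Cardiomyocytes of the Cre control have a recombined allele beside a normal one. The non-carriers of the lines therefore differ in their Mib1 alleles. In the non-Cre line the Asxl3 and Apcdd1 alleles always travel with the stop allele, so the effects of the 3 alleles cannot be told apart within that line. The ventricles are whole tissue, and fewer cells of a type and less RNA per cell cannot be told apart in such samples.

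Mib1 encodes an E3 ubiquitin ligase that acts in the cell that sends a Notch signal. It attaches ubiquitin to Delta and Jagged ligands, the ligand is then taken up by endocytosis, and the bound Notch receptor on the neighbouring cell is cleaved. The freed intracellular domain joins the DNA-binding protein RBPJ and activates genes such as those of the Hes and Hey families. In the developing heart the pathway takes part in trabeculation, in compaction of the ventricular wall and in valve formation. Fetal cardiomyocytes draw mostly on glucose and lactate, and the genes for burning fatty acids are built up as the heart matures.

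Between 10103548 and 22157720 reads per library were assigned to genes, and triple heterozygote replicate 2 was the deepest, followed by a library with 14774121. Levels are given as CPM, the count of a gene scaled to a common library size after correction for library composition, and 1 read was worth 0.0452 to 0.0991 CPM. Markers of ventricular muscle were present in every pool: Myl2, the ventricular myosin light chain, lay between 4010 and 6812 CPM, and Irx4, a ventricular transcription factor, between 64.2 and 84.1 CPM. The largest component of variance, 27.2%, separated the lines, and carriers also lay below non-carriers on it within each line: -29.7 to -21.3 against -15.1 to -13.1 in the Cre line, and 15.2 to 20.7 against 21.1 to 23.4 in the other. Xist, made from the inactive X chromosome, was at 0.095 CPM in Mib1 mutant replicate 1 and 0.387 in Cre control replicate 1 against 71.5 to 458 in the other pools, so each group of the Cre line has 1 pool without the female transcript. The edgeR quasi-likelihood test was run on 13964 genes, with line as a term and carrier as the tested term. A gene was called when its p, adjusted by Benjamini-Hochberg over all tested genes, was under 0.05. This value is called the edgeR adjusted p below.

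Mib1 itself was lower in carriers of both lines, to about the same degree. Mib1 (ENSMUSG00000024294; GRCm38 chromosome 18, 10725548 to 10818704, plus strand) stood at 54.8, 50.1 and 51.8 CPM in the Mib1 mutant pools and at 108, 107 and 101 in the Cre controls. In the triple heterozygote it stood at 74.0, 57.9 and 74.1 CPM and in WT at 145, 126 and 136. Carriers and non-carriers did not overlap in either line, and the Cre controls lay below all 3 WT pools. Over both lines Mib1 fell 2.0-fold, a log2 change of -1.001 (SE 0.07) with an edgeR adjusted p of 1.53e-06. Within the lines the log2 change was -1.01 (SE 0.09) and -0.99 (SE 0.09), and the difference between them was -0.02 (SE 0.13, edgeR adjusted p 0.954). Gene totals do not separate transcripts of the stop, flox and normal alleles.

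The genes of the other alleles were not called. Asxl3, which encodes a partner of the deubiquitinase BAP1, averaged 6.62 ± 1.64 CPM in the Mib1 mutant, against 5.51 ± 1.92 in the Cre control, 6.08 ± 1.26 in the triple heterozygote and 6.33 ± 0.482 in WT (SD, n = 3 each). Apcdd1, a membrane inhibitor of Wnt signalling, averaged 14.7 ± 4.33, 10.03 ± 0.873, 10.3 ± 1.27 and 10.6 ± 0.279 CPM in the same order (SD, n = 3 each). Their edgeR adjusted p over both lines was 0.927 and 0.647. A missense change need not alter the transcript level.

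Few other genes changed on average over both lines. Of the 13964 genes tested, 11 were called, or 0.0788%, with 3 higher (0.0215%) and 8 lower (0.0573%) in carriers, while 1247 (8.93%) had an unadjusted p under 0.05. The lower genes were Mib1, the fatty acid genes Cd36 and Acsl1, the metabolic genes Acss1, Adhfe1 and Tecrl, the endothelial gene Cd300lg, and Lynx1. The higher genes included Prrx2 and the pseudogene Gm13841. For 10 of the 11, all but Gm13841, carrier and non-carrier pools did not overlap in either line, 2 higher and 8 lower. Over all tested genes such separation in the same direction was seen for 0.508% higher and 0.938% lower. DESeq2 called 121 genes (0.867%) and limma-voom 12 (0.0859%), and each called 10 of the 11, again all but Gm13841. For 10 of the 11 the effect was not called as different between the lines, and the smallest edgeR adjusted p for that difference was 0.113, for Cd300lg. For Gm13841 the difference could not be estimated, since 3 of the 4 groups were at or near 0. The mean of the within-line contrasts, which keeps differences between lines out of the residual spread, called 81 genes (0.58%). The count rests on single pools. It came to 7, 4 and 2 without Mib1 mutant replicates 1, 2 and 3, and to 3, 4 and 5 without Cre control replicates 1, 2 and 3. Without triple heterozygote replicates 1 and 2 it came to 19 and 5, and without WT replicates 1 and 2 to 2 and 3. Mib1 was called in all 12 of these fits, Prrx2 in 8, Acsl1 in 5, Cd36 in 4, Acss1 and Cd300lg in 3, Tecrl and Lynx1 in 2, and Adhfe1 in 1, with every direction kept.

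**Figure D1:**
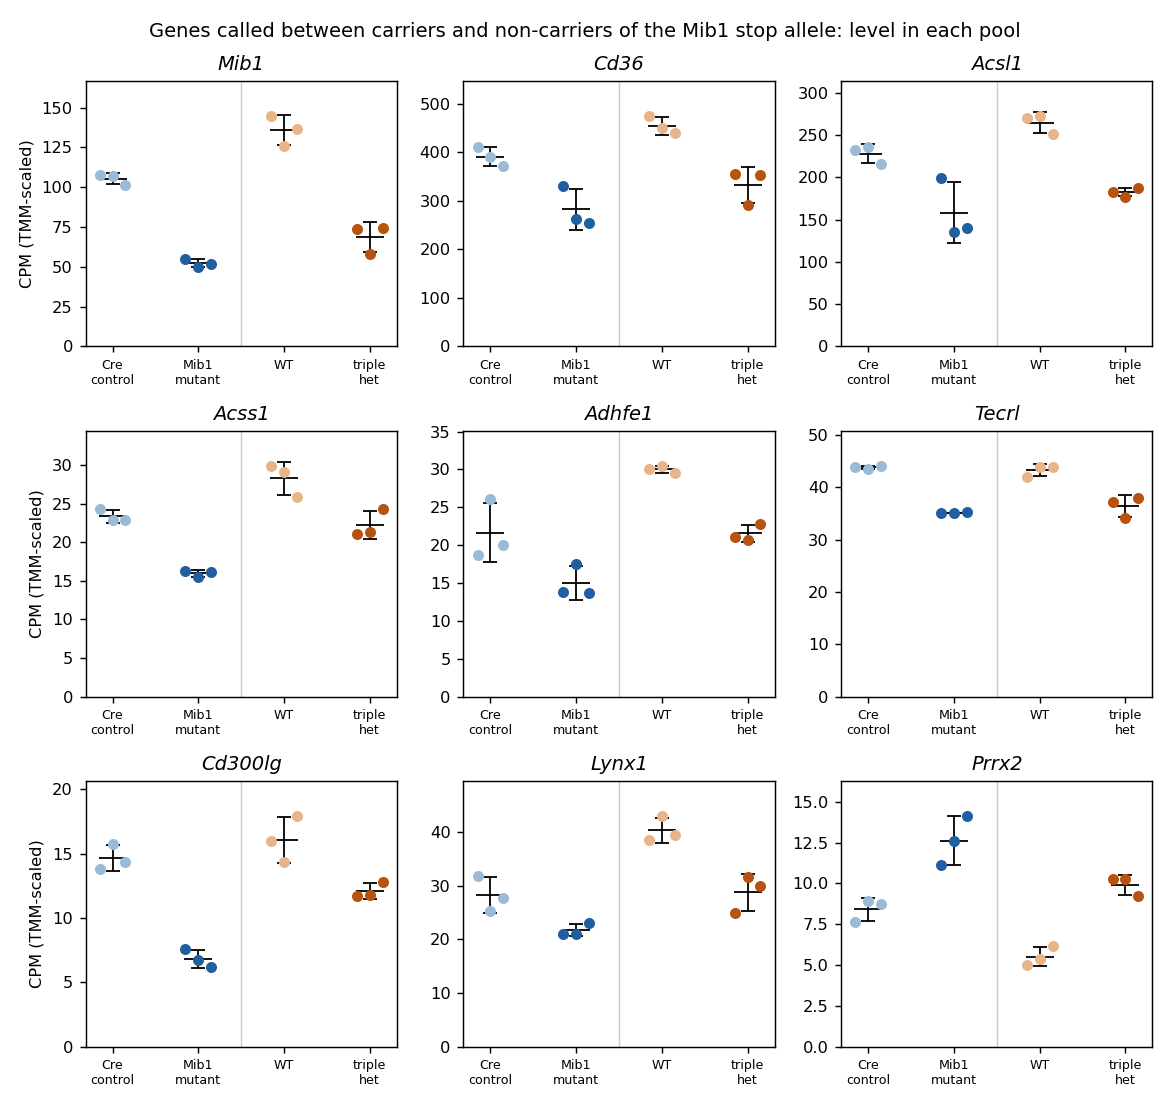
Level of 9 called genes in each pool, in CPM on a linear axis that starts at 0, with 1 point per pool, the mean as a bar and the SD as whiskers (n = 3). Blue points are the Cre line and orange points the non-Cre line, with carriers darker; in every panel carriers and non-carriers of the same line lie apart, as for Mib1 at 50.1 to 54.8 CPM in the Mib1 mutant, against 101 to 108 in the Cre control.

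Cd36 and Acsl1, genes of fatty acid uptake and activation, were lower in carriers of both lines. Cd36 encodes a membrane protein through which long-chain fatty acids enter cardiomyocytes and capillary endothelium. It stood at 332, 263 and 255 CPM in the Mib1 mutant, against 411, 390 and 373 in the Cre control. In the triple heterozygote it was at 355, 291 and 353 CPM and in WT at 476, 450 and 440. The groups did not overlap within a line, and Mib1 mutant replicate 1 was nearest to its controls. Cd36 (ENSMUSG00000002944; chromosome 5, 17781690 to 17888801, minus strand) fell 1.38-fold, a log2 change of -0.46 (SE 0.07, edgeR adjusted p 0.0214), with -0.47 in the Cre line and -0.45 in the non-Cre line.

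Acsl1 encodes the acyl-CoA synthetase that activates long-chain fatty acids once they are inside the cell. Its levels were 199, 135 and 140 CPM in the Mib1 mutant against 232, 236 and 216 in the Cre control. They were 183, 177 and 187 CPM in the triple heterozygote against 270, 273 and 251 in WT. Again no carrier pool reached a non-carrier pool of its line, and Mib1 mutant replicate 1 was the closest. Acsl1 (ENSMUSG00000018796; chromosome 8, 46471037 to 46536051, plus strand) fell 1.45-fold, a log2 change of -0.53 (SE 0.08, edgeR adjusted p 0.0214), with -0.53 and -0.54 in the lines. Without Mib1 mutant replicate 1 the call held, as it did without triple heterozygote replicates 1 and 3 and WT replicate 3 for both genes, and for Acsl1 also without Cre control replicate 3. Leaving out any other pool ended it, with edgeR adjusted p of up to 0.0687 for Acsl1 and 0.0847 for Cd36.

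The rest of the fatty acid list leaned the same way by smaller amounts. The list has 36 genes of fatty acid uptake and oxidation, and 35 of them were tested. Of these, edgeR called 2 as lower, Cd36 and Acsl1, beside 0.0573% of all tested genes called lower. An unadjusted p under 0.05 was reached by 19 members, all lower, against 4.35% of all tested genes. DESeq2 called 11 members (31.4%), all lower, and 72 lower genes in all (0.516%), whereas limma-voom called the same 2 as edgeR. The log2 change was negative in both lines for 26 of the 35, or 74.3%, against 21.5% of all tested genes, and positive in both for 1 (Ehhadh, a peroxisomal enzyme). The median log2 change of the list was -0.15, with -0.23 in the Cre line and -0.11 in the non-Cre line, and that of all tested genes was 0.00. Pools did not overlap, in the lower direction in both lines, for 11 members: Cd36, Acsl1, Hadhb, Hadha, Acadm, Acadvl, Hadh, Etfdh, Cpt2, Decr1 and Echs1. Over all tested genes such separation in the lower direction was seen for 0.938%. Summed over the list, the Mib1 mutant pools held 6366 to 6885 CPM against 7500 to 8246 in the Cre control, and the triple heterozygote 6970 to 7408 against 7940 to 8173 in WT. Thus the summed level of the list also separated carriers from non-carriers within each line.

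Hadhb and Hadha are the subunits of the mitochondrial trifunctional protein, which carries out the last steps of long-chain beta-oxidation. Hadhb was at 410, 390 and 404 CPM in the Mib1 mutant, against 517, 521 and 487 in the Cre control, 481, 467 and 455 in the triple heterozygote and 534, 531 and 518 in WT. Its log2 change was -0.26 (SE 0.05) at an edgeR adjusted p of 0.0593, just short of a call, and the mean of the within-line contrasts called it (edgeR adjusted p 0.0101). Acadm, the medium-chain acyl-CoA dehydrogenase, was at 279, 303 and 278 CPM in the Mib1 mutant against 344, 379 and 360, and at 363, 340 and 323 in the triple heterozygote against 383, 404 and 380 in WT. Its log2 change was -0.26 (SE 0.05) at an edgeR adjusted p of 0.0911, and 0.0255 with the mean of the within-line contrasts. Both had larger changes in the Cre line (-0.34 and -0.33) than in the non-Cre line (-0.18 and -0.19), and neither difference between lines passed (edgeR adjusted p 0.389 and 0.505).

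Other steps of the pathway did not pass the edgeR test, although DESeq2 called Cpt1b and Lpl as lower. Cpt1b, the muscle enzyme that commits fatty acids to mitochondrial import, had a log2 change of -0.23 (SE 0.06, edgeR adjusted p 0.227), and Lpl, the lipase that frees fatty acids from lipoproteins, one of -0.26 (SE 0.07, edgeR adjusted p 0.247). Fabp3, the heart fatty acid-binding protein, had -0.15 (SE 0.07, edgeR adjusted p 0.528). Slc27a1, a fatty acid transporter, had 0.06 (SE 0.12, edgeR adjusted p 0.935), a value that turned to -0.01 without Mib1 mutant replicate 1. Among regulators of the pathway, Ppara and Ppargc1a had negative log2 changes in both lines, and Esrra had opposite signs. Ppara, a nuclear receptor that drives fatty acid oxidation genes, had log2 changes of -0.05 in the Cre line and -0.68 in the non-Cre line, and Ppargc1a, a coactivator of mitochondrial genes, -0.07 and -0.23. For Esrra, an orphan nuclear receptor of the same programme, the values were -0.18 and 0.10. None of these was called in either line.

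**Figure D2:**
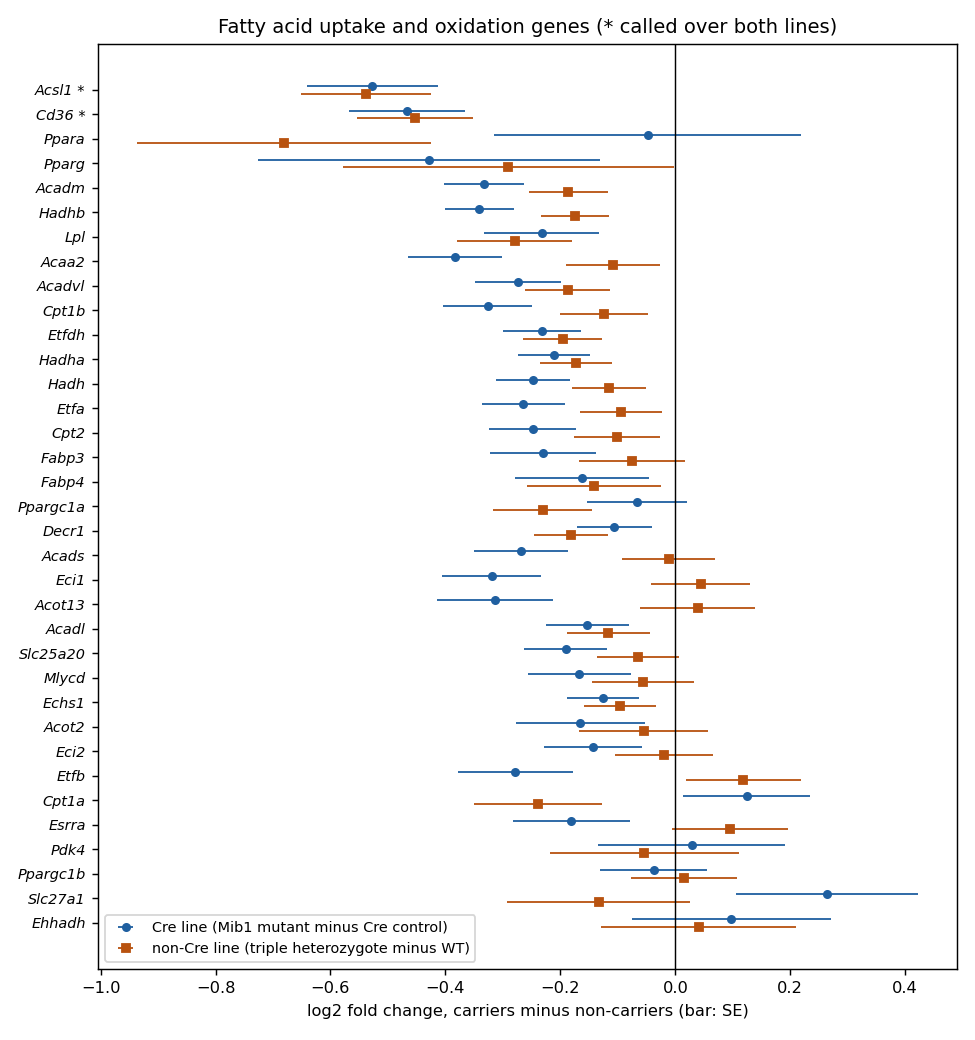
Log2 fold change, carriers minus non-carriers, of the 35 tested genes of fatty acid uptake and oxidation, with the Cre line as blue circles, the non-Cre line as orange squares and the SE as bars; asterisks mark the called genes. For 26 of the 35 genes both symbols lie left of 0, and Acsl1 and Cd36 have nearly the same value in each line.

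Acss1, Adhfe1 and Tecrl are further genes of lipid and small-acid metabolism among the called. Acss1 encodes the mitochondrial enzyme that turns acetate into acetyl-CoA. It stood at 16.3, 15.47 and 16.2 CPM in the Mib1 mutant, against 24.4, 22.9 and 22.9 in the Cre control, 21.1, 21.4 and 24.3 in the triple heterozygote and 29.9, 29.1 and 25.9 in WT. Carriers were below non-carriers in each line, by a wider margin in the Cre line. Acss1 (ENSMUSG00000027452; chromosome 2, 150618105 to 150668500, minus strand) fell 1.36-fold, a log2 change of -0.44 (SE 0.07, edgeR adjusted p 0.0214).

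Adhfe1 encodes a mitochondrial hydroxyacid transhydrogenase. Its levels were 13.9, 17.5 and 13.6 CPM in the Mib1 mutant against 18.8, 26.04 and 20.1 in the Cre control, and 21.1, 20.7 and 22.8 in the triple heterozygote against 30.1, 30.5 and 29.5 in WT. The narrowest gap lay between Mib1 mutant replicate 2 and Cre control replicate 1. Adhfe1 (ENSMUSG00000025911; chromosome 1, 9547948 to 9580673, plus strand) fell 1.42-fold, a log2 change of -0.50 (SE 0.09, edgeR adjusted p 0.0407).

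Tecrl encodes a heart-enriched relative of trans-2,3-enoyl-CoA reductase, and its human counterpart is known from inherited arrhythmia. It was at 35.1, 35.1 and 35.2 CPM in the Mib1 mutant against 43.8, 43.5 and 44.1 in the Cre control, and at 37.2, 34.1 and 38.0 in the triple heterozygote against 42.0, 43.9 and 43.9 in WT. The pools of the Cre line hardly varied within a group. Tecrl (ENSMUSG00000049537; chromosome 5, 83278145 to 83355195, minus strand) fell 1.22-fold, a log2 change of -0.29 (SE 0.05, edgeR adjusted p 0.0407), with the smallest fold of the called genes.

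Promoter sequences were read because Acss1, Acadm and Perm1 were lower in carriers of both lines, and because the windows carry letters of factors tied to Notch or to oxidative genes. Perm1 encodes a muscle regulator of mitochondrial genes, and its values stand with the genes close to the threshold below. Each window runs from 250 bases before to 50 after the RefSeq gene start on GRCm38.p6, and the 3 were picked after the motif search. Capitals in the first mark GTGGGAA, a core bound by RBPJ; capitals in the others mark TGACCTT, the opposite strand of AAGGTCA, the half-site of estrogen-related receptors.
Acss1: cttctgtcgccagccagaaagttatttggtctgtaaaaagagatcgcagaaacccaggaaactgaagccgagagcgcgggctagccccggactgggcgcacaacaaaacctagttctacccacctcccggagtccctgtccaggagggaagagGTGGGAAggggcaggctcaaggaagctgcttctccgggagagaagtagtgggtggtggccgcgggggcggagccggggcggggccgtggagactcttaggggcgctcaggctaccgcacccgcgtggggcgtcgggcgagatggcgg
Perm1: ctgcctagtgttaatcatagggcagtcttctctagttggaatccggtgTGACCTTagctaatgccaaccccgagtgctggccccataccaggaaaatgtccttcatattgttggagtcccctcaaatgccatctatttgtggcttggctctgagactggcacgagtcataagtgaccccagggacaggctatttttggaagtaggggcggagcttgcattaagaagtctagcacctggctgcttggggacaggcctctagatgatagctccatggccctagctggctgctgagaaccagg
Acadm: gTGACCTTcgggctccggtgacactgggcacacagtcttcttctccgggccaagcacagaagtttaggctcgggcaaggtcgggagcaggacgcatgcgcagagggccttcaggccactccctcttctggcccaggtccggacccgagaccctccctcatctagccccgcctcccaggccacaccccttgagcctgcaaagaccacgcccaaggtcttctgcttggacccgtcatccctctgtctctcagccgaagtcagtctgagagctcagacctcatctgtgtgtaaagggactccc

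The windows lie at chr2:150668191-150668490 on the minus strand (Acss1), chr4:156215677-156215976 on the plus strand (Perm1) and chr3:153944594-153944893 on the minus strand (Acadm), and are printed 5′ to 3′ along the gene. Searched on both strands, GTGGGAA was in 6.1% of the 13450 windows of tested genes and AAGGTCA in 3.16%. The table of windows matched 5 of the called genes with 6 windows, of which 1 held GTGGGAA and 0 held AAGGTCA. A match describes the letters of the window and is not a measured binding site.

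Cd300lg encodes a glycoprotein of capillary endothelium. It had 7.60, 6.71 and 6.21 CPM in the Mib1 mutant against 13.8, 15.8 and 14.3 in the Cre control, and 11.7, 11.8 and 12.8 in the triple heterozygote against 15.95, 14.3 and 17.9 in WT. Carriers were lower in both lines, and the gap was wider in the Cre line. Cd300lg (ENSMUSG00000017309; chromosome 11, 102041509 to 102055620, plus strand) fell 1.66-fold, a log2 change of -0.73 (SE 0.12, edgeR adjusted p 0.0407), with -1.10 (SE 0.13) and -0.41 (SE 0.12) in the lines. The list of 33 endothelial and endocardial genes, 32 of them tested, had 0 members called by edgeR and a median log2 change of 0.01. DESeq2 called 1 (Aplnr, 3.12% of the list, against 0.867% of all tested genes). An unadjusted p under 0.05 was reached by 6, or 18.8% of the list against 8.93% of all. Its summed level was 2889 to 3272 CPM in the Mib1 mutant, against 2784 to 2988 in the Cre control, 2812 to 2992 in the triple heterozygote and 2990 to 3065 in WT. Thus the fall of Cd300lg was not shared by the endothelial list in the Cre line, where the carriers' sum reached higher.

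Lynx1 encodes a membrane-anchored protein known to modulate nicotinic acetylcholine receptors. It had 21.1, 21.1 and 23.0 CPM in the Mib1 mutant against 31.9, 25.3 and 27.7 in the Cre control, and 24.9, 31.6 and 29.9 in the triple heterozygote against 38.6, 43.0 and 39.5 in WT. No carrier pool reached a non-carrier pool of its own line, although the triple heterozygote overlapped the Cre control. Lynx1 (ENSMUSG00000022594; chromosome 15, 74747852 to 74753046, minus strand) fell 1.35-fold, a log2 change of -0.43 (SE 0.07, edgeR adjusted p 0.0407).

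Prrx2 was among the higher genes and had reads in every pool. Prrx2, a homeobox transcription factor of mesenchyme, valve cushions included, had 11.1, 12.6 and 14.1 CPM in the Mib1 mutant against 7.63, 8.95 and 8.72 in the Cre control. In the triple heterozygote it had 10.3, 10.3 and 9.22 CPM against 5.03, 5.39 and 6.16 in WT. WT pools were the lowest of all 12 and Mib1 mutant pools the highest. Prrx2 (ENSMUSG00000039476; chromosome 2, 30834972 to 30881251, plus strand) rose 1.63-fold, a log2 change of 0.71 (SE 0.10, edgeR adjusted p 0.0157), with 0.58 in the Cre line and 0.84 in the non-Cre line. Its paralog Prrx1, by contrast, had log2 changes of 0.25 and -0.31, and -0.03 (SE 0.10) over both lines. Without Mib1 mutant replicate 3, Cre control replicate 1, WT replicate 1 or WT replicate 2 the Prrx2 call was lost, at edgeR adjusted p of up to 0.0617.

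The calls of Acss1, Cd300lg, Tecrl, Lynx1 and Adhfe1 depended on most pools. With 1 pool left out, the log2 change stayed between -0.48 and -0.42 for Acss1 and between -0.81 and -0.66 for Cd300lg. For Tecrl, Lynx1 and Adhfe1 the limits were -0.30 and -0.27, -0.47 and -0.38, and -0.55 and -0.44. Acss1 kept its call without triple heterozygote replicates 1 or 3 or WT replicate 3, and Cd300lg without triple heterozygote replicates 1 or 3 or WT replicate 2. Tecrl kept it without triple heterozygote replicates 1 or 3, Lynx1 without Cre control replicate 2 or triple heterozygote replicate 1, and Adhfe1 without Mib1 mutant replicate 2. Leaving out any other pool ended each of these calls. All 5 calls were also lost without the pools of 1 sex in the Cre line (edgeR adjusted p 0.113 to 0.137), and those of Cd300lg and Tecrl with a covariate for sex mix (0.0546 and 0.0559). With single pools left out the edgeR adjusted p reached 0.0847 for Acss1, 0.11 for Cd300lg, 0.131 for Tecrl, 0.137 for Lynx1 and 0.116 for Adhfe1.

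Gm13841 (ENSMUSG00000083833; chromosome 5, 115801677 to 115802159, minus strand), a processed pseudogene, was called from the Cre line. It had 26.3, 22.8 and 18.5 CPM in the Mib1 mutant and was at 0 in the 3 Cre control pools, the 3 WT pools and triple heterozygote replicates 1 and 2. Triple heterozygote replicate 3 had 0.099 CPM, or 1 read. The Mib1 mutant thus stood alone, and the signal was not that of carriers in general. Reads of a processed pseudogene can be divided with near-identical copies, so the value is uncertain, and DESeq2 (adjusted p 0.207) and limma-voom (0.0578) did not call it.

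Further genes lay close to the threshold. At an edgeR adjusted p under 0.10, 39 genes passed, or 0.279% of those tested, 13 higher and 26 lower; the 28 with values between 0.05 and 0.10 were looked at after the results were known. They hold 2 members of the fatty acid list, Hadhb and Acadm, and Perm1. Perm1 was at 28.2, 24.4 and 26.03 CPM in the Mib1 mutant, against 34.5, 36.3 and 29.4 in the Cre control, 30.8, 29.9 and 33.6 in the triple heterozygote and 38.5, 41.8 and 41.6 in WT, a log2 change of -0.36 (SE 0.06, edgeR adjusted p 0.0522). Nnt, the mitochondrial enzyme that makes NADPH from NADH, had a log2 change of -0.25 (SE 0.05, edgeR adjusted p 0.0959). The model bears on these genes: the mean of the within-line contrasts called Perm1 (edgeR adjusted p 0.0208) and Nnt (0.0216).

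Other genes of that range are given as examples. Xirp2, an actin-binding protein of the intercalated disc, had a log2 change of -0.96 (SE 0.20, edgeR adjusted p 0.0959). For Chrm2, the muscarinic receptor of the heart, the log2 change was -0.33 (SE 0.06, edgeR adjusted p 0.0644), and for Cavin4, a caveolar protein of muscle, -0.45 (SE 0.09, edgeR adjusted p 0.0644). On the higher side stood Tnc, a matrix glycoprotein of remodelling tissue, with a log2 change of 0.62 (SE 0.12, edgeR adjusted p 0.0597), Mn1, a transcriptional coregulator, with 0.47 (SE 0.08, edgeR adjusted p 0.0512), and Id2, an inhibitor of basic helix-loop-helix factors, with 0.43 (SE 0.08, edgeR adjusted p 0.0522). For Tnc, Mn1 and Id2 the Cre line gave the larger value, at 0.95, 0.66 and 0.65 against 0.28, 0.28 and 0.21, and the differences between lines did not pass (edgeR adjusted p 0.0751, 0.276 and 0.0924). The mean of the within-line contrasts called all 6 of these genes, at edgeR adjusted p of 0.0269 for Xirp2, Chrm2 and Cavin4, 0.00126 for Tnc and Id2, and 0.00492 for Mn1.

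In the additive model over both lines, edgeR called no gene of the Notch lists but Mib1. Of 16 tested genes for ligands and ligand ubiquitination, Mib1 was the only one called, and the median log2 change was -0.01. The ligand genes Jag1 and Dll4 had log2 changes of -0.01 (SE 0.08) and 0.15 (SE 0.10), and Mib2, the paralog of Mib1, 0.11 (SE 0.08, edgeR adjusted p 0.783). Mib2 stood at 25.3, 21.2 and 20.1 CPM in the Mib1 mutant, against 21.9, 20.3 and 21.7 in the Cre control, 21.1, 23.7 and 21.1 in the triple heterozygote and 17.9, 19.4 and 22.2 in WT, with overlap in both lines. Of 27 tested genes for receptors and their processing, 0 were called by edgeR, DESeq2 or limma-voom, 1 had an unadjusted p under 0.05, and the median was 0.03. Of 15 tested target genes, 0 were called by edgeR or limma-voom and 1 (Id2) by DESeq2 (6.67%, against 0.867% of all tested genes). An unadjusted p under 0.05 was reached by 5, or 33.3% against 8.93% of all, 3 higher and 2 lower. The median of the targets was 0.07 and ran from 0.01 to 0.11 with a pool left out, lowest without Mib1 mutant replicate 2.

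The Hes and Hey targets had small values. Hey1, Hey2 and Heyl, transcriptional repressors downstream of Notch, had log2 changes of -0.05 (SE 0.11), -0.03 (SE 0.07) and 0.12 (SE 0.07), and Hes1 0.22 (SE 0.10, edgeR adjusted p 0.519). Hey2 averaged 204 ± 27.0 CPM in the Mib1 mutant, against 209 ± 10.03 in the Cre control, 189 ± 24.5 in the triple heterozygote and 192 ± 3.36 in WT (SD, n = 3 each). These means differed by less than the larger SD in each line. The targets with larger values were Bmp10, a growth factor of trabecular muscle, and Gja5, a gap junction gene of trabeculae and conduction cells. Bmp10 had log2 changes of -2.62 (SE 0.30) and -0.28 (SE 0.23) in the lines, and Gja5 -1.21 (SE 0.14) and 0.06 (SE 0.13), and over both lines the additive model did not call them (edgeR adjusted p 0.271 and 0.374). Within the Cre line both were called, as was Id2 (edgeR adjusted p 0.000273, 0.000291 and 0.000273 for Bmp10, Gja5 and Id2), and the mean of the within-line contrasts called all 3 (0.00205, 0.0139 and 0.00126).

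Lists of muscle and mitochondrial genes had no member called by edgeR over both lines. Of 13 mitochondrially encoded genes, 10 were lower in both lines and 0 higher in both, with a median log2 change of -0.17 (-0.29 in the Cre line and -0.04 in the other), or -0.11 without Cre control replicate 2. Among 60 nuclear genes of the respiratory chain, 22 were lower in both lines and 0 higher in both, and the medians of the lines were -0.24 and 0.03. The median over both lines, -0.12, came to -0.07 without Mib1 mutant replicate 1 or Cre control replicate 2. For 36 sarcomere genes the counts were 19 and 1, and the median was -0.09, or -0.05 without Mib1 mutant replicate 1. The 16 trabecular genes had a median of -0.08, with 5 lower and 2 higher in both lines. It came to -0.04 without Mib1 mutant replicate 1 or WT replicate 1 and to -0.05 without Cre control replicate 2. Within the Cre line edgeR called 5 of the 16 as lower and 1 as higher, beside 1.5% of all tested genes in either direction. The summed trabecular level was 1282 to 1528 CPM in the Mib1 mutant against 1893 to 1945 in the Cre control. In the triple heterozygote it was 1948 to 2062 CPM against 1781 to 2073 in WT. An unadjusted p under 0.05 was reached by 5 mitochondrially encoded genes (38.5%), 11 respiratory chain genes (18.3%), 8 sarcomere genes (22.2%) and 6 trabecular genes (37.5%). Over all tested genes the share was 8.93%. In the same order DESeq2 called 0, 3 (5%), 2 (5.56%) and 0 members of these lists, beside 0.867% of all tested genes. Across all tested genes, 21.5% were lower and 22.7% higher in both lines.

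The epicardial, matrix and valve lists had positive medians, whereas the endothelial list was near 0 and the leukocyte list negative. Of 15 epicardial genes, 11 were higher in both lines and 0 lower in both, with a median log2 change of 0.12. That median fell to 0.01 without triple heterozygote replicate 3, whose summed level was 397 CPM against 291 and 297 in the other pools of its group. Among the epicardial genes edgeR called 0, DESeq2 2 (Krt18 and Krt19, 13.3%), and 3 (20%) had an unadjusted p under 0.05. Of 53 genes of matrix and fibroblasts, 29 were higher and 2 lower in both lines. Their median was 0.19 (0.29 in the Cre line and 0.01 in the other). Of these genes, edgeR called 0 and DESeq2 3 (5.66%), and 19 (35.8%) had an unadjusted p under 0.05. Over all tested genes the shares were 0.867% for DESeq2 and 8.93% for the unadjusted p, and 22.7% were higher in both lines. The valve mesenchyme list, 21 genes, had Prrx2 as its 1 called member, 12 members higher in both lines and a median of 0.23 (0.32 and 0.04), or 0.12 without Mib1 mutant replicate 2. Its summed level was 2119 to 2558 CPM in the Mib1 mutant against 1824 to 1932 in the Cre control, and 1749 to 2010 in the triple heterozygote against 1881 to 2015 in WT. The part of these cell type markers in the changes of Prrx2 and the fatty acid genes was not tested.

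**Figure D3:**
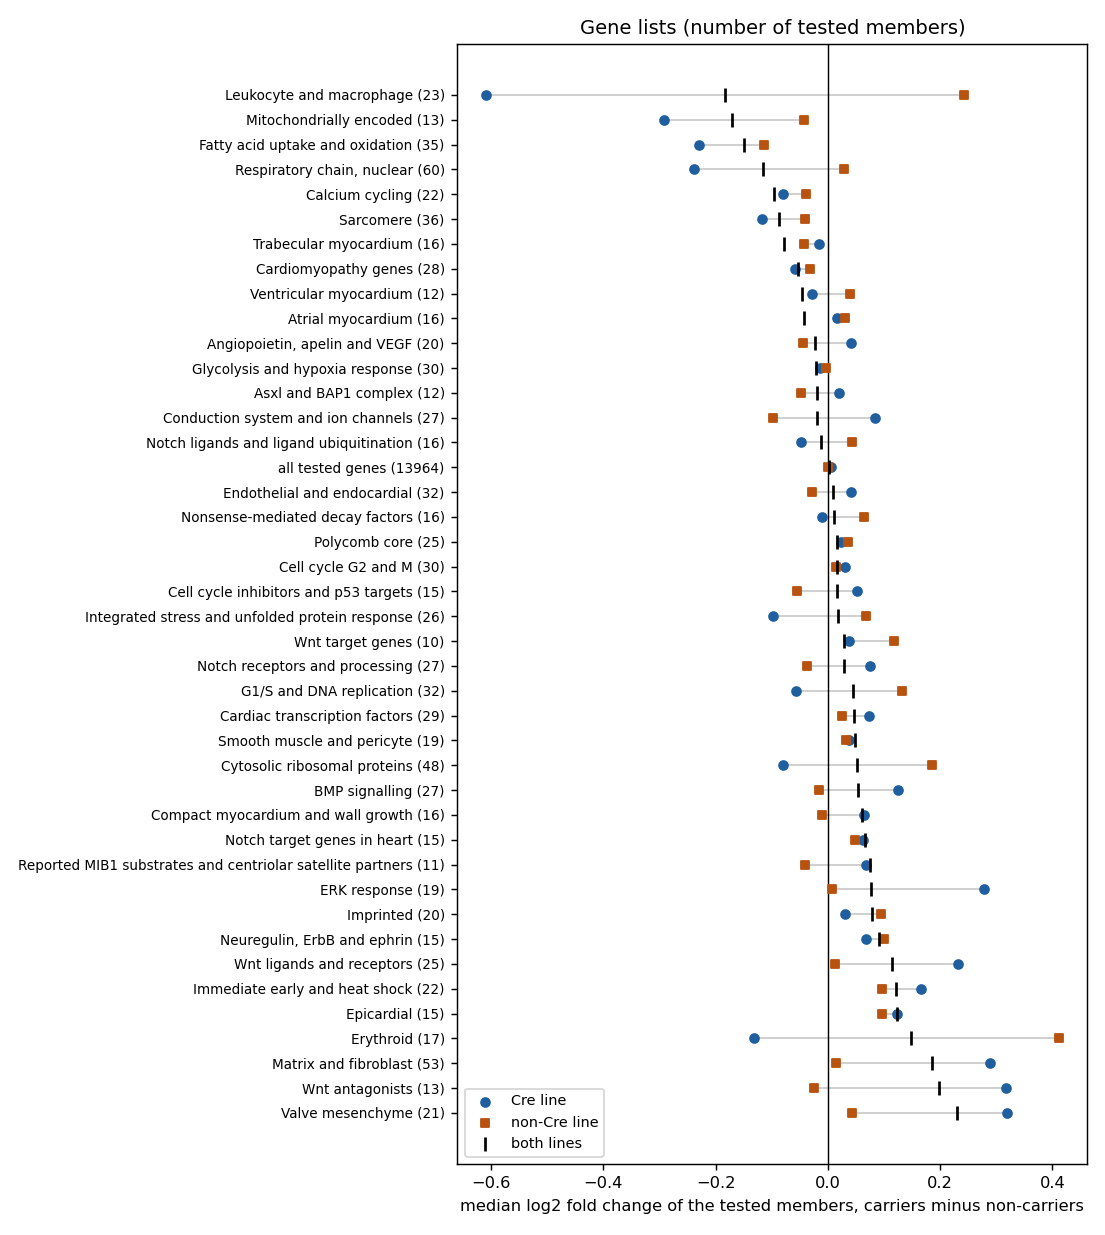
Median log2 fold change, carriers minus non-carriers, of the tested members of each gene list with at least 10 tested members, for the Cre line (blue circles), the non-Cre line (orange squares) and both lines (black bars), with the number tested in brackets. The fatty acid list lies left of 0 in both lines at -0.23 and -0.11. Several lists have opposite signs in the lines, among them the leukocyte, erythroid, cytosolic ribosomal and nuclear respiratory chain lists.

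Leukocyte and erythroid markers had medians of opposite sign in the lines, and liver markers were at low levels. Of 24 leukocyte and macrophage genes, 23 were tested, and their median log2 change was -0.61 in the Cre line and 0.24 in the other; the summed level was 122 to 164 CPM in the Mib1 mutant against 214 to 264 in the Cre control, and 204 to 246 in the triple heterozygote against 160 to 207 in WT. The median of 17 tested erythroid genes was -0.13 in the Cre line and 0.41 in the non-Cre line. Their summed level was 3912 to 5190 CPM in the Mib1 mutant against 4852 to 5535, and 7542 to 8717 in the triple heterozygote against 4764 to 5540. Of 13 liver genes, 4 passed the filter on low counts, of which 3 were lower in both lines. Of the 4, 0 were called by edgeR, DESeq2 or limma-voom, and 3 had an unadjusted p under 0.05 (8.93% of all tested genes). Alb, the serum albumin gene, was at 0.095, 0.186 and 0 CPM in the Mib1 mutant, against 0, 0.709 and 2.91 in the Cre control, 0.0907, 0.0904 and 0.0991 in the triple heterozygote and 1.65, 9.60 and 0.822 in WT. It was highest in WT replicate 2, as was Afp at 10.4 CPM, and its edgeR adjusted p was 0.0911. How far blood or liver RNA bears on the called genes was not tested; with the erythroid genes left out, 11 genes were again called.

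The share of embryonic chains among globin transcripts was examined as a single value per pool. It was 1.57% ± 0.244 in the Mib1 mutant, 0.946% ± 0.457 in the Cre control, 0.841% ± 0.151 in the triple heterozygote and 0.721% ± 0.154 in WT (SD, n = 3 each). The difference, carriers minus non-carriers, was 0.621 percentage points in the Cre line and 0.12 in the non-Cre line, with a mean of 0.37. The exact two-sided permutation test of carriers within lines gave p = 0.05 over 400 arrangements, where the smallest possible p is 0.005, and did not pass. The same exact permutation test passed without Cre control replicate 1 (p = 0.025), triple heterozygote replicate 3 (p = 0.03) or WT replicate 1 (p = 0.04).

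The average over lines covers unlike responses in the lines. By the edgeR test within a line, 210 genes (1.5%) were called in the Cre line, 127 higher and 83 lower, and 3 (0.0215%) in the non-Cre line, Mib1, Hba-a1 and Hba-a2. The adult alpha globin genes Hba-a1 and Hba-a2 averaged 2692 ± 320 and 844 ± 104 CPM in the triple heterozygote against 1585 ± 123 and 486 ± 36.3 in WT (SD, n = 3 each). As near-identical copies they may share reads. With 1 pool left out, Hba-a1 kept its call in 5 of 12 fits (edgeR adjusted p up to 0.398) and Hba-a2 in 8 of 12 (up to 0.204). Both lost it without triple heterozygote replicate 2 and without WT replicates 1, 2 or 3, and Hba-a1 also without Mib1 mutant replicate 3, Cre control replicate 2 or triple heterozygote replicate 3.

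Genes called in the Cre line had the same sign in the non-Cre line in 105 of 210 cases, or 50%, beside 44.2% of all tested genes. Of the 210, 25 (11.9%) had the same sign with an unadjusted p under 0.05 in the non-Cre line, 10 higher and 15 lower, and 16 (7.62%) had the opposite sign with such a p. The corresponding shares of all tested genes were 3.62% and 5.03%. Mib1, Prrx2, Acsl1, Acss1, Cd36, Cd300lg and Tecrl were among the 25, as were Hadhb, Acadm, Mn1, Id2 and Tnc. Across all tested genes the log2 changes of the lines had Pearson's r of -0.01 and Spearman's rho of -0.11, where the points are genes of the same 12 libraries and not independent replicates. Separation of pools in both lines was about as frequent in opposite directions (1.44% of tested genes) as in the same direction (1.45%).

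For 72 genes (0.516%) the carrier effect itself differed between the lines by the edgeR test, 45 with the higher value in the Cre line. The smallest p belonged to Cacna1g, a T-type calcium channel gene, which stood at 89.1, 80.5 and 76.0 CPM in the Mib1 mutant, against 19.6, 25.9 and 21.8 in the Cre control, 15.2, 23.7 and 20.7 in the triple heterozygote and 21.8, 25.9 and 20.4 in WT. The Mib1 mutant stood apart, and the other 3 groups overlapped. Cacna1g had a log2 change of 1.87 (SE 0.14) in the Cre line and -0.17 (SE 0.15) in the non-Cre line, a difference of 2.04 (SE 0.20, edgeR adjusted p 0.000711). Angpt1, which signals to endothelial cells through Tie2, showed the reverse, with 8.86 ± 0.161 CPM in the Mib1 mutant against 36.7 ± 6.20 in the Cre control, and 46.7 ± 11.3 in the triple heterozygote against 44.4 ± 3.94 in WT (SD, n = 3 each).

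**Figure D4:**
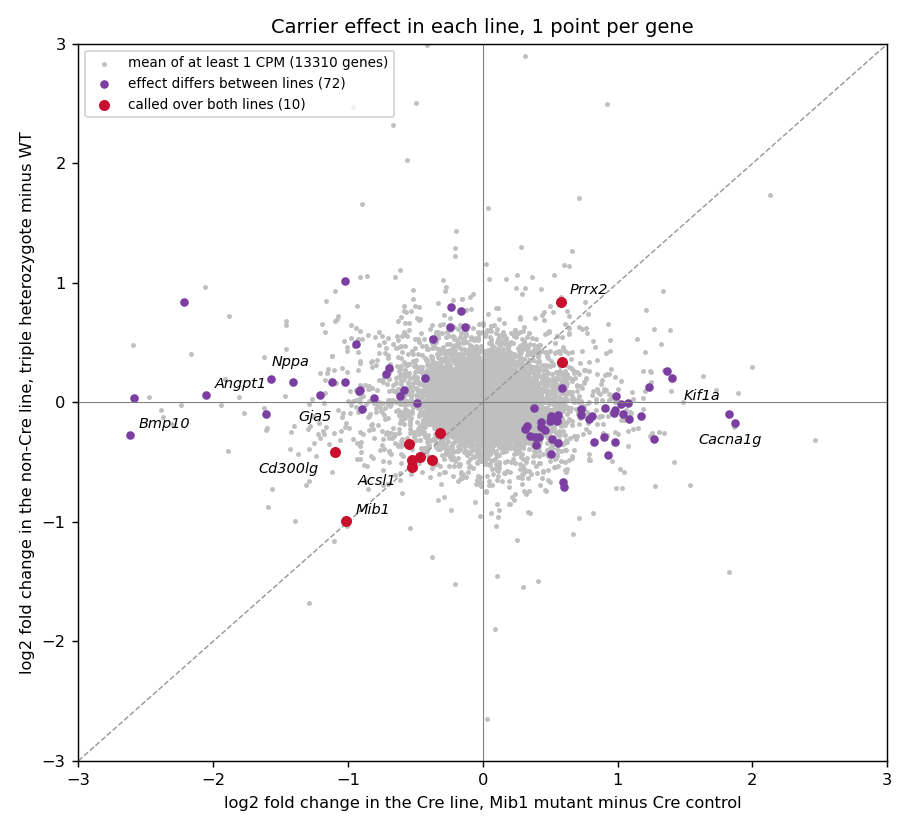
Log2 fold change, carriers minus non-carriers, in the Cre line (horizontal axis) and the non-Cre line (vertical axis), 1 point for each of the 13310 genes with a mean of at least 1 CPM; 26 points fall outside the axes. Red points are the 10 called genes with reads in every pool. Most lie near the dashed line of equal effects, and Cd300lg, at -1.10 and -0.41, lies farther off. The additive model counts a difference between lines as residual spread, so it favours genes with similar effects. The 72 purple points, whose effect differed between lines, mostly lie along the horizontal axis.

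Neighbours of Mib1 on its chromosome were not called. Within 5 Mb of Mib1 39 other genes were tested. Of these, 0 were called by edgeR, DESeq2 or limma-voom, 3 had an unadjusted p under 0.05, the smallest edgeR adjusted p was 0.354, and log2 changes ran from -0.83 to 0.19 with a median of -0.01. Of all 354 other tested genes of chromosome 18, edgeR called 0, DESeq2 5 and limma-voom 0, and 34 had an unadjusted p under 0.05. The shares are 1.41% for DESeq2 and 9.6% for the unadjusted p, beside 0.867% and 8.93% of all tested genes.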

How the data were processed

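Per the labels' protocols, pooled E15.5 ventricles gave polyA RNA for strand-specific libraries, read from 1 end for 60 bases. Tools named in the submitters' processing notes are RSEM, cutadapt, limma and bcl2fastq 2.20.0.422, with GRCm38 as the build; which aligner and annotation were used is not given in the sources used here. Values are RSEM expected counts, deposited by the authors in 1 table without scaling for depth; 9.64% of the values were not whole, since reads shared by near-identical genes are divided. All 12 columns were used. The columns called mutant were assigned to the triple heterozygote because their names hold neither flox nor Cre, an inference from names alone. Of 38293 identifiers, 36429 were found in GENCODE M21, which gave symbols and GRCm38 positions, and 15719 genes had no read.

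Rounded counts went into edgeR 4.0.16 under R 4.3.3 (glmQLFit and glmQLFTest, two-sided, TMM scaling, filterByExpr), which kept 13964 genes with 99.9% of the counts. The model was line plus carrier, with 9 residual degrees of freedom; a fit with 4 group means (8 residual degrees of freedom) gave the values within lines and the difference between lines. SE is the size of the log2 change divided by the square root of F. Alternatives were median-ratio scaling, other filters, DESeq2 1.42.0, limma-voom 3.58.1, other models, the replicate block, the sex mix of the pools, and each replicate left out; the threshold of 0.10 and protein-coding genes alone were added after seeing the data. Named were Mib1, Asxl3 and Apcdd1, called genes with no overlap within lines, up to 3 called members per list, 5 genes by smallest p of the line difference and the genes called in the non-Cre line; other names were chosen after their values were seen. Of the called genes, 1 is counted but not reported here. The members, the 46 gene lists and the tests were chosen with earlier results of these data known. Replicates are pools; whether pools share litters is not stated, and replicate libraries differed by more than sampling noise. The procedure was tested on simulated data. Promoter windows are from RefSeq GRCm38.p6.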

Additional observations from a re-analysis of the deposited data

Results flagged for a closer look

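For 72 genes the effect of carrying the stop allele differed between the Cre line and the non-Cre line by the edgeR test of that difference. The values below are the log2 change in the Cre line minus that in the non-Cre line, each with its edgeR adjusted p. Higher in the Cre line were Cacna1g by 2.04 (0.000711), Kif1a, a kinesin of axonal transport, by 1.92 (0.00082), Tagln, an actin-binding protein of smooth muscle, by 1.1 (0.0289), Kcne1, a potassium channel subunit, by 1.06 (0.00476) and Plekha6 by 0.95 (0.00301). Lower in the Cre line were Bmp10 at -2.34 (0.0135), Angpt1 at -2.11 (0.000824), Nppa, the atrial natriuretic peptide, at -1.58 (0.0455), Gja5 at -1.26 (0.00815), Hba-a2 at -1.03 (0.00659), Cited1 at -0.99 (0.00623) and Hba-a1 at -0.93 (0.0184). For the alpha globin genes the shift was in the non-Cre line, where their log2 changes were 0.76 and 0.80 against -0.16 and -0.23 in the Cre line. The Asxl3 and Apcdd1 alleles, the flox allele and Tnnt2-Cre all differ between the lines, so the source of these differences cannot be told apart.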

How the results depend on the processing

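No called gene changed direction under any alternative that was run, while 10 genes with small, uncalled log2 changes did under some. The count of 11 genes over both lines came to 121 with DESeq2, 75 with no filter on low counts, 81 with the mean of the within-line contrasts in place of the additive model, 39 at a threshold of 0.10, 6 without the pools of 1 sex in the Cre line and 1 without line in the model. Leaving out 1 replicate gave 2 to 19. The additive model counts a difference between lines as residual spread; of the 81 genes, 10 were among the 11, and 24 of the rest had an effect that differed between the lines. The 210 genes of the Cre line came to 476 with no filter, 417 with DESeq2, 439 at 0.10, 110 without the pools of 1 sex, 93 in a fit of that line alone and 116 to 415 with a replicate left out, the highest without Mib1 mutant replicate 2. The 3 genes of the non-Cre line came to 54 with no filter, 28 with DESeq2, 10 at 0.10, 5 with the sex mix, 7 without the pools of 1 sex, 1 without erythroid genes, 6 with protein-coding genes, 10 in a fit of that line alone and 1 to 6 with a replicate left out. The 72 differences between lines came to 246, 167 and 147 with no filter, DESeq2 and 0.10, to 41 without the pools of 1 sex and to 28 (without triple heterozygote replicate 2) to 233 (without Mib1 mutant replicate 2). The cause of these shifts was not tested.

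Whether replicate numbers pair the pools was not settled. Deviations of same-numbered pools correlated at 0.125, 0.166 and 0.014 in the Cre line and at 0.0913, -0.0064 and -0.0613 in the other. For differently numbered pools the correlations ran from -0.21 to 0.113 in the Cre line and from -0.152 to 0.161 in the other. With the replicate block within each line the counts were 8 over both lines, 358 in the Cre line, 15 in the non-Cre line and 105 for the difference. The embryonic globin difference of 0.37 percentage points ranged from 0.251 to 0.479 with a replicate left out, and passed at 0.479, 0.409 and 0.4 without Cre control replicate 1, triple heterozygote replicate 3 and WT replicate 1. The log2 change of Mib1 stayed between -1.03 and -0.95 and was called in all 24 alternatives. The median of the fatty acid list stayed between -0.17 and -0.13, whereas other lists depended more on single pools: with 1 left out, the lowest and highest medians were 0.01 and 0.17 (epicardial), 0.12 and 0.28 (valve), -0.12 and -0.05 (sarcomere), -0.09 and -0.04 (trabecular), -0.14 and -0.07 (nuclear respiratory chain), -0.23 and -0.11 (mitochondrially encoded), 0.01 and 0.11 (Notch target) and -0.02 and 0.01 (Notch ligand). Without line in the model every called gene but Mib1 was lost. With 1 replicate left out, the log2 change of the 10 uncalled genes that changed sign ran over Asxl3 -0.0137 to 0.193, Slc27a1 -0.0146 to 0.121, Esrra -0.112 to 0.0037, Hey1 -0.111 to 0.0486, Hey2 -0.0815 to 0.0089, Dll1 -0.192 to 0.0461, Neurl1b -0.0061 to 0.0624, Prrx1 -0.0763 to 0.0403, Jag1 -0.069 to 0.0286 and Pdk4 -0.146 to 0.0583. Without the pools of 1 sex, Slc27a1 came to -0.0462, Dll1 to 0.0227 and Jag1 to 0.0295. The cause was not tested.

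Depth limits the genes of low count: 1 read was worth up to 0.0991 CPM, and genes below the filter on low counts were not tested.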

Other observations

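Smooth muscle and calcium-handling lists held further genes whose pools did not overlap in either line. Tagln stood at 53.5, 93.0 and 70.2 CPM in the Mib1 mutant, against 28.2, 27.1 and 28.7 in the Cre control, 42.7, 51.2 and 43.5 in the triple heterozygote and 38.0, 40.1 and 36.7 in WT, with an edgeR adjusted p of 0.109 over both lines. Cnn1, the smooth muscle calponin, had a log2 change of 0.37 (SE 0.09, edgeR adjusted p 0.163), with 114, 164 and 168 CPM in the Mib1 mutant against 103 to 111 in the Cre control, and 120, 141 and 120 in the triple heterozygote against 102 to 110 in WT. DESeq2 called both as higher, or 10.5% of the list against 0.867% of all tested genes. Of the 19 tested genes of that list, 0 were called by edgeR or limma-voom. Pools separated in the higher direction in both lines for 2 members, beside 0.508% of all tested genes. The list as a whole had a median log2 change of 0.05, with 12 members positive and 7 negative. An unadjusted p under 0.05 was reached by 3 higher and 3 lower members.

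Of 22 calcium cycling genes, 3 were lower without overlap in both lines, beside 0.938% of all tested genes. Jph1, which holds the membranes of the calcium release unit together, had log2 changes of -0.60 (SE 0.09) in the Cre line and -0.15 (SE 0.08) in the non-Cre line. Casq2, the calcium store protein of the sarcoplasmic reticulum, had -0.21 (SE 0.08) and -0.24 (SE 0.08), and Camk2d, a calcium-dependent kinase, -0.20 (SE 0.07) and -0.14 (SE 0.07). Over both lines edgeR called none of the 22 (edgeR adjusted p 0.141, 0.221 and 0.271 for the 3 genes), limma-voom called 0, DESeq2 called 4 (0.867% of all tested genes), and 8 had an unadjusted p under 0.05 (8.93% of all).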
